A study of Mus musculus with 11 samples.

Results

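The 10 genes described here encode proteins of the acrosome, among them the lysozyme-like proteins of the sperm head: Lyzl4, Lyzl6, Spaca3, Acr, Acrbp, Acrv1, Spam1, Spaca1, Zpbp and Zpbp2. They were chosen by name, and every probe that the platform annotation assigns to them by current or older symbol was taken, which gave 16 of the 46643 probes on the array and 10 of the 19406 genes named there. RNA came from elutriated testis cells of adult C57Bl/6 males aged 8 to 12 weeks, each preparation pooled from 10 mice, and was measured on 11 Illumina arrays. The 4 groups were spermatids of Dnmt3L heterozygotes (n = 3), spermatids of wild types (n = 3), spermatocytes of Dnmt3L heterozygotes (n = 2) and spermatocytes of wild types (n = 3). By the study's methods the heterozygotes carry 1 Dnmt3L allele disrupted by a LacZ reporter, the wild types came from the same colony, and the fractions were enriched by centrifugal elutriation, so other cells of the testis were present. The series asks whether loss of 1 allele of Dnmt3L, a regulator of DNA methylation in germ cells, changes transcription in meiotic and haploid cells. The p-values below measure the spread between preparations.

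The acrosome is a Golgi-derived vesicle that flattens over the nucleus of the spermatid and is released when sperm meet the egg. Its matrix holds proteases and hyaluronidases, and its membranes carry proteins that meet the zona pellucida and the oolemma. Several of its proteins belong to the c-type lysozyme family, and SPACA3 and LYZL4 of the mouse are held to have lost the bacteriolytic activity of lysozyme. Transcription of acrosomal genes begins in meiosis for some members and in haploid spermatids for others.

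The start regions of 4 genes whose probes were higher in spermatids (values below) are shown because cAMP response elements, bound by the spermatid activator CREM, are known from promoters of haploid germ cells. Each is a RefSeq window of GRCm38.p6 holding 250 bases before and 50 bases after an annotated start, written 5′ to 3′ on the strand of the gene. Capitals mark the shared core of the element, TGACG, or its reverse complement CGTCA.
Spaca1, chr4:34050016-34050315, minus strand: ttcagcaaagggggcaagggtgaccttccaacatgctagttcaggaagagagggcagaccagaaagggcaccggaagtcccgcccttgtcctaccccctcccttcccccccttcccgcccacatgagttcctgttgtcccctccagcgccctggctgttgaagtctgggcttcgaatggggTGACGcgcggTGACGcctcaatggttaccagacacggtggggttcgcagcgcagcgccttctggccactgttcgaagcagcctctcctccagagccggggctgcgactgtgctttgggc
Spaca3, chr11:80858113-80858412, plus strand: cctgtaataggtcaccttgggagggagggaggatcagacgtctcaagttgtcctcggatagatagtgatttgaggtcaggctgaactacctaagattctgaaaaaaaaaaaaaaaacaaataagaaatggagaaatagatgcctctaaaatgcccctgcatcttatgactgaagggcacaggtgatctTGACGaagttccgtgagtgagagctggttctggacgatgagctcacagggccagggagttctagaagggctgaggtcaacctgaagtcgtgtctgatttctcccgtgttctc
Lyzl4, chr9:121586912-121587211, minus strand: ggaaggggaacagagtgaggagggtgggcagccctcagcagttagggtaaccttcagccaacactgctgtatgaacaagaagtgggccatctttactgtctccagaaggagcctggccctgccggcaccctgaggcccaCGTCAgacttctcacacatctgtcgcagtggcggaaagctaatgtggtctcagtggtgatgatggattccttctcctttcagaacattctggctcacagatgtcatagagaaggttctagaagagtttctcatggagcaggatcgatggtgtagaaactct
Lyzl6, chr11:103638841-103639140, minus strand: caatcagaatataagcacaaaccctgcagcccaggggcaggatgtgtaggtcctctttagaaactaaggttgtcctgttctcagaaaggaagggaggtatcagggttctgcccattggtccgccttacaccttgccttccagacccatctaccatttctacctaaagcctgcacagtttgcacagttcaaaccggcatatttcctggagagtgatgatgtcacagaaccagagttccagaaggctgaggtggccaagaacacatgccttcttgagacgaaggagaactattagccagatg
In the Spaca1 window 2 cores began at -69 and -59 from the start, and in the windows of Spaca3 and Lyzl4 1 began at -62 and -111. The Lyzl6 window held none, nor did the windows of the other annotated starts of Lyzl4, which are not shown. The Acrv1 window, also not shown, held none, although Acrv1 was higher in spermatids too. Acrbp and Zpbp2 had a core in their windows but were not called higher in spermatids.

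Windows were found for 9 of the 10 genes, 13 windows in all, since some genes have more than 1 annotated start. The core TGACG, searched on both strands, lay in 7 windows of 5 genes (Spaca1, Acrbp, Lyzl4, Spaca3 and Zpbp2). Of all 32851 windows of the same length, 20.8% hold it. The windows of Spaca1 overlap each other, as do those of Spaca3, so the same cores were counted in more than 1 window. The full element TGACGTCA, in which a core on each strand overlaps the other, was in 0 of the 13 windows and in 1.79% of all windows. TATAAA on the strand of the gene was in 0 of the 13 windows, against 8.32% of all. CCAAT on either strand was in the windows of Zpbp and Lyzl6 alone, against 37.4% of all, and GTTGCC, part of the site of RFX factors, on either strand was in that of Acrbp alone, against 12.5%. These are matches of letters, and nothing about factor binding was measured.

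The deposited values were log2 intensities after a variance-stabilising transformation and quantile normalisation, so every array had a median of 6.87. Arrays of 1 group correlated at r between 0.961 and 0.994 over all probes. By the methods each cell type was hybridised on its own BeadChip, so the chip and the cell type cannot be told apart. In the fractions, 13 genes of late spermatids (protamines, transition proteins and tail or sheath genes) averaged between 12.04 and 12.55 per array in heterozygous spermatids, 11.92 and 12.60 in wild type spermatids, 10.74 and 10.76 in heterozygous spermatocytes, and 9.72 and 10.65 in wild type spermatocytes. Of 9 pachytene genes tested, Syce3 was higher and Ovol1 lower in spermatids of the wild type fractions, and Tesmin was lower in spermatids of the heterozygous fractions. An unadjusted p under 0.05 was reached by 2 of the 9 in heterozygotes and by 6 of the 9 in wild types. Piwil1 and Spo11 had log2 differences of -0.95 and -0.48 in heterozygotes and of -1.22 and -0.60 in wild types, none of them called. All 6 macrophage and blood genes tested were higher in spermatids of wild types, with list means per array of 8.65 to 10.24 in spermatids against 6.96 to 7.19 in spermatocytes. In heterozygotes 4 of these 6 were higher, with means of 9.17 to 9.23 in spermatids against 7.12 to 7.21 in spermatocytes. Of 5 peritubular genes tested, 2 were higher in spermatids of heterozygotes and 3 in those of wild types. Their list means were 8.90 to 9.26 in heterozygous spermatids and 8.91 to 9.43 in wild type spermatids. In spermatocytes they were 7.85 to 7.87 in heterozygotes and 7.68 to 7.86 in wild types. Dcn and Actg2 were called in both genotypes, at 3.06 and 2.14 in heterozygotes and 3.43 and 2.88 in wild types. Actg2 was the brightest of the 5, with means of 12.70 and 12.81 in heterozygous and wild type spermatids. In heterozygous and wild type spermatocytes its means were 10.56 and 9.93. The lysozyme-like genes described below had the same order of groups, and which cells the Actg2 signal came from was not tested. Acta2 was called in wild types, and Myh11 and Tagln in neither genotype. Of all named genes tested, 10.5% were called higher and 11.0% lower in spermatids of heterozygotes, and 14.2% and 16.9% in wild types. Of 11 Sertoli genes 0 were called between the fractions by limma or had an unadjusted p under 0.05. Of 6 Leydig genes only Star was called, lower in spermatids of each genotype. The Leydig list median was 0.67 in heterozygotes and 0.82 in wild types. Leydig means per array were 7.59 to 8.92 and 7.36 to 9.71 in heterozygous and wild type spermatids. They were 7.54 to 7.66 and 7.18 to 8.68 in heterozygous and wild type spermatocytes. Of 10 spermatogonium genes, 1 was called higher in heterozygous spermatids, and 3 higher and 1 lower in wild type spermatids. The part of these cells in the results below was not tested. Dnmt3l itself was measured by a probe downstream of the insertion, which does not check the genotype labels. Its values were 9.78 to 10.96 in heterozygous spermatids, 10.19 to 10.91 in wild type spermatids, 8.66 to 8.82 in heterozygous spermatocytes and 8.10 to 8.27 in wild type spermatocytes.

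The dimmest 40% of probes by mean value over the 11 arrays were not tested, which kept 12 of the 16 probes and 9 of the 10 genes. The cut lay at a mean of 6.80. Spam1 has 1 probe and it fell under this cut, as did 2 of the 3 Zpbp2 probes and 1 of the 2 Spaca1 probes. Differences were tested with limma on the log2 scale, with p-values adjusted by Benjamini-Hochberg over all 27986 probes kept and 4 contrasts together, and a probe with an adjusted p under 0.05 is called.

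When spermatids were set against spermatocytes, the lysozyme-like genes showed the greatest differences among the 12 probes tested in the wild type fractions, and Acrv1 and Spaca1 were also higher in spermatids of both genotypes. Acrbp, Zpbp and Zpbp2 did not pass the test on their brightest probe in either genotype, and Acr passed on 1 of its 2 probes. In wild types 6 of the 12 probes were called higher in spermatids and 1 lower, where 11.5% and 15.5% of all probes tested were called higher and lower. In heterozygotes the same 6 probes were called higher and 0 lower, where 8.65% and 9.15% of all probes were. With the brightest probe standing for each gene, 5 of 9 genes were higher in either genotype, where 14.2% of all genes were in wild types and 10.5% in heterozygotes. The median log2 difference over the 12 probes was 0.58 in heterozygotes and 0.61 in wild types, where that over all probes was -0.02 and -0.03. In pooled fractions of this kind, fewer spermatids in a preparation and less RNA per spermatid cannot be told apart.

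**Figure D1:**
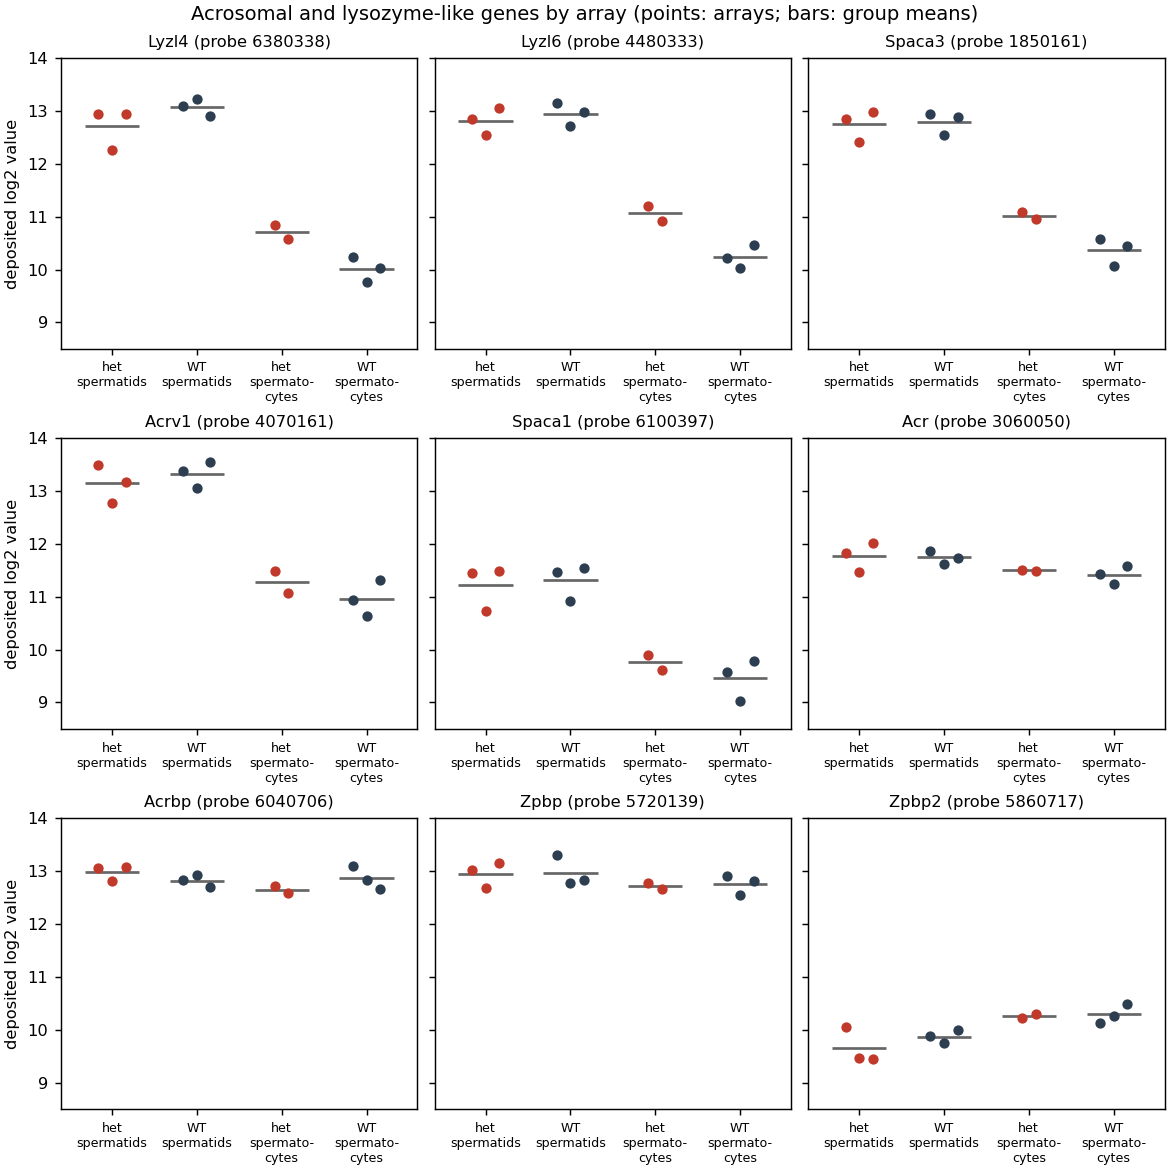
Deposited log2 values of the brightest probe of 9 genes on each of 11 arrays (points), with the group mean (bar), for heterozygous (red) and wild type (dark) spermatids and spermatocytes. Lyzl4, Lyzl6, Spaca3, Acrv1 and Spaca1 lie higher on every spermatid array than on any spermatocyte array, while Acrbp and Zpbp stay between 12.54 and 13.30 throughout.

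Lyzl4 encodes a lysozyme-like protein of the acrosome and lies on chromosome 9. Its values were 12.95, 12.27 and 12.95 in heterozygous spermatids, 13.09, 13.23 and 12.90 in wild type spermatids, 10.84 and 10.58 in heterozygous spermatocytes, and 10.24, 9.76 and 10.03 in wild type spermatocytes. The fractions were far apart in both genotypes, and 1 of the 3 heterozygous spermatid arrays, replicate 2, lay well below the rest of the spermatids. Spermatids exceeded spermatocytes by 2.01 ± 0.22 in heterozygotes (log2, SE, adjusted p 0.00149) and by 3.06 ± 0.20 in wild types (adjusted p 0.000186), a 4.03-fold and an 8.34-fold difference.

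Lyzl6, on chromosome 11, encodes another lysozyme-like protein found on sperm. It measured 12.84, 12.55 and 13.06 in heterozygous spermatids, 13.16, 12.71 and 12.99 in wild type spermatids, 11.21 and 10.92 in heterozygous spermatocytes, and 10.23, 10.03 and 10.46 in wild type spermatocytes. Every spermatid array was above every spermatocyte array, and both heterozygous spermatocyte arrays were above the 3 wild type ones. The difference between the fractions was 1.76 ± 0.19 in heterozygotes (adjusted p 0.00137) and 2.71 ± 0.17 in wild types (adjusted p 0.000170).

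Spaca3, also on chromosome 11, encodes a lysozyme-like acrosomal protein with a part in binding the egg membrane in the mouse. Its values were 12.84, 12.41 and 12.99 in heterozygous spermatids, 12.93, 12.54 and 12.89 in wild type spermatids, 11.08 and 10.96 in heterozygous spermatocytes, and 10.57, 10.07 and 10.44 in wild type spermatocytes. The pattern over the groups was like that of Lyzl6, again with both heterozygous spermatocyte arrays above all wild type ones. Spermatids were higher by 1.72 ± 0.20 in heterozygotes (adjusted p 0.00180) and by 2.43 ± 0.18 in wild types (adjusted p 0.000283).

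Acrv1, on chromosome 9, encodes SP-10, an acrosomal matrix protein. The probe read 13.49, 12.76 and 13.18 in heterozygous spermatids, 13.38, 13.05 and 13.54 in wild type spermatids, 11.49 and 11.06 in heterozygous spermatocytes, and 10.93, 10.63 and 11.32 in wild type spermatocytes. The genotypes overlapped within each fraction. Spermatids were higher by 1.87 ± 0.26 in heterozygotes (adjusted p 0.00368) and by 2.36 ± 0.24 in wild types (adjusted p 0.000981).

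Spaca1, on chromosome 4, encodes an acrosomal membrane protein that the mouse needs to shape the acrosome. Its brighter probe read 11.44, 10.73 and 11.48 in heterozygous spermatids, 11.47, 10.92 and 11.54 in wild type spermatids, 9.89 and 9.62 in heterozygous spermatocytes, and 9.57, 9.03 and 9.78 in wild type spermatocytes. Replicate 2 was the lowest array in each group of 3 arrays. The fractions differed by 1.46 ± 0.30 in heterozygotes (adjusted p 0.0156) and by 1.85 ± 0.27 in wild types (adjusted p 0.00392). Without the first or the second heterozygous spermatocyte array the heterozygous difference was 1.59 or 1.32 and no longer passed (adjusted p 0.0550 and 0.0987). The second probe of Spaca1 stayed between 6.67 and 6.78 on all 11 arrays and was not tested.

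Acr encodes acrosin, the serine protease of the acrosome, and lies on chromosome 15. Probe 2940017 read 12.05, 11.50 and 12.22 in heterozygous spermatids, 12.04, 11.92 and 11.54 in wild type spermatids, 11.19 and 10.98 in heterozygous spermatocytes, and 11.04, 10.97 and 10.83 in wild type spermatocytes. The fractions did not overlap, yet the distance was smaller than for the genes above, with 0.84 ± 0.21 in heterozygotes (adjusted p 0.0355) and 0.89 ± 0.19 in wild types (adjusted p 0.0185). The other Acr probe, 3060050, differed by 0.27 ± 0.16 (adjusted p 0.387) and 0.33 ± 0.14 (adjusted p 0.205) in the same comparisons and was not called. The call on probe 2940017 in heterozygotes was also lost with no filter on dim probes (adjusted p 0.0587), with only the groups compared in the fit (0.124), and without heterozygous spermatid array 1 (0.0904) or 3 (0.0862), heterozygous spermatocyte array 1 (0.0978) or 2 (0.195), wild type spermatid array 1 (0.0551) or wild type spermatocyte array 1 (0.0606), 2 (0.0684) or 3 (0.0624). In wild types it was lost without wild type spermatid array 1 (0.0676) or wild type spermatocyte array 2 (0.0552) or 3 (0.0639).

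Acrbp, on chromosome 6, encodes the protein that binds proacrosin and governs its packing in the granule. Its brighter probe read 13.05, 12.81 and 13.07 in heterozygous spermatids, 12.84, 12.93 and 12.70 in wild type spermatids, 12.71 and 12.58 in heterozygous spermatocytes, and 13.09, 12.83 and 12.67 in wild type spermatocytes. In heterozygotes every spermatid array was above both spermatocyte arrays, in wild types the fractions overlapped, and neither difference was called, with 0.33 (95% interval 0.03 to 0.63, adjusted p 0.177) and -0.04 (-0.31 to 0.23, adjusted p 0.917). The second probe of Acrbp stayed between 6.91 and 7.48 and was called in no contrast.

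Zpbp and Zpbp2, both on chromosome 11, encode paired proteins of the acrosome that take part in its compaction and in binding the zona pellucida. The brighter Zpbp probe, 5720139, read 13.02, 12.68 and 13.16 in heterozygous spermatids, 13.30, 12.78 and 12.84 in wild type spermatids, 12.77 and 12.67 in heterozygous spermatocytes, and 12.91, 12.54 and 12.82 in wild type spermatocytes. The fractions overlapped in both genotypes, with differences of 0.23 (-0.20 to 0.66, adjusted p 0.597) in heterozygotes and 0.22 (-0.17 to 0.60, adjusted p 0.577) in wild types. The dim Zpbp probe, 102640519, which ranged from 7.17 to 7.76, went the other way and was called lower in wild type spermatids by 0.38 ± 0.08 (log2 difference -0.38, adjusted p 0.0150), so the probes of Zpbp disagree. That call was lost with only the wild type groups in the fit (adjusted p 0.0619), with cyclic loess (0.0817) and without wild type spermatocyte array 2 (0.0557) or 3 (0.0508).

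The tested Zpbp2 probe read 10.05, 9.46 and 9.45 in heterozygous spermatids, 9.87, 9.74 and 9.99 in wild type spermatids, 10.22 and 10.30 in heterozygous spermatocytes, and 10.13, 10.25 and 10.48 in wild type spermatocytes. All spermatid arrays lay below all spermatocyte arrays, as for the dim Zpbp probe and unlike the brightest probes of the genes above. The difference missed the threshold, at -0.61 ± 0.18 in heterozygotes (adjusted p 0.0699) and -0.42 ± 0.16 in wild types (adjusted p 0.159). Without heterozygous spermatid array 1 it passed in both genotypes (-0.81, adjusted p 0.00674, and -0.42, adjusted p 0.0357). The other Zpbp2 probes stayed between 6.62 and 6.94.

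Spam1, on chromosome 6, encodes PH-20, the hyaluronidase that lets sperm through the cumulus. Its probe read 6.91, 6.95 and 6.84 in heterozygous spermatids, 6.82, 6.74 and 6.83 in wild type spermatids, 6.80 and 6.62 in heterozygous spermatocytes, and 6.63, 6.60 and 6.57 in wild type spermatocytes. Apart from heterozygous spermatid arrays 1 and 2, these values lay below the array median of 6.87, and they were not tested.

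**Figure D2:**
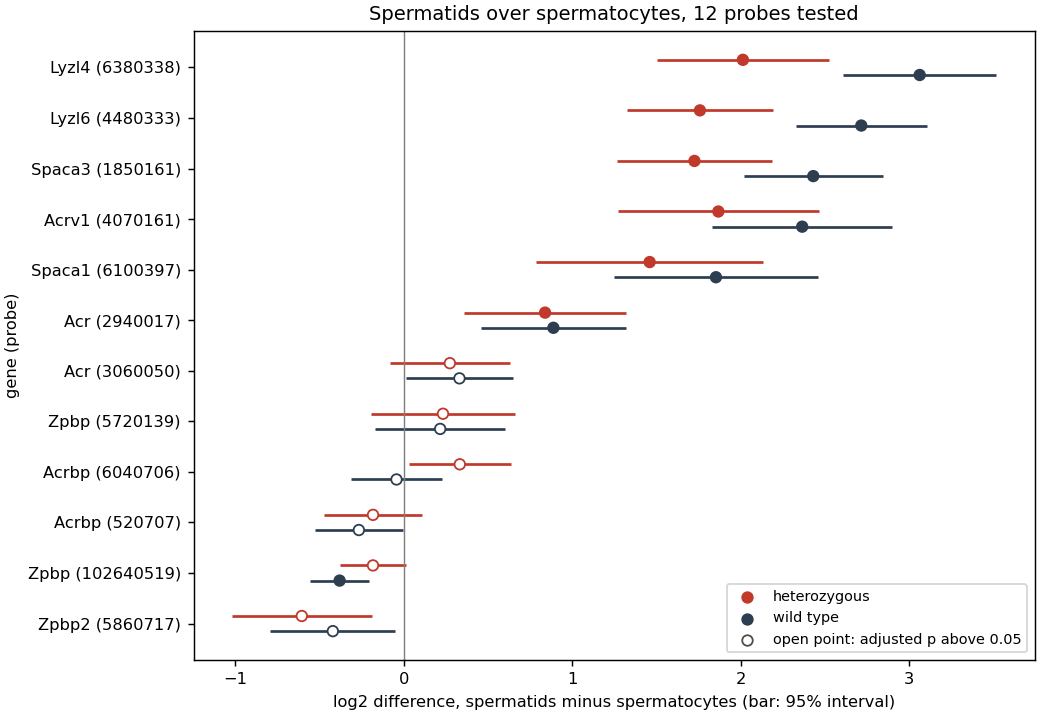
Log2 difference between spermatids and spermatocytes for the 12 probes tested, in heterozygotes (red) and wild types (dark), with 95% intervals and filled points where the adjusted p was under 0.05. The difference for Lyzl4 reaches 2.01 in heterozygotes and 3.06 in wild types, and those for the brighter probes of Acrbp and Zpbp lie between -0.04 and 0.33.

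Heterozygous and wild type spermatocytes were compared next. Of the members, the 3 lysozyme-like genes had the greatest differences in heterozygous over wild type spermatocytes, and Lyzl6 alone passed the test. Lyzl6 stood at 11.06 ± 0.21 (SD, n = 2) in heterozygous spermatocytes and 10.24 ± 0.21 (SD, n = 3) in wild type spermatocytes, a log2 difference of 0.83 ± 0.19 (SE, 95% interval 0.39 to 1.26, adjusted p 0.0256), or 1.77-fold. Lyzl4 averaged 10.71 ± 0.19 in heterozygous and 10.01 ± 0.24 in wild type spermatocytes (SD, n = 2 and 3), and its difference of 0.70 (0.19 to 1.21) missed the threshold (adjusted p 0.0865). Spaca3 averaged 11.02 ± 0.08 in heterozygous and 10.36 ± 0.26 in wild type spermatocytes, with a difference of 0.66 (0.20 to 1.12, adjusted p 0.0754). For these 3 of the 12 probes both heterozygous arrays lay above all wild type arrays, as they did for 11.5% of all probes tested, and the call on 1 of 12 probes stands beside 0.100% of all probes called higher. The other members overlapped between the genotypes. Acrv1 differed by 0.32 (-0.28 to 0.91), Spaca1 by 0.30 (-0.38 to 0.97), the 2 Acr probes by 0.14 and 0.09, the brighter probe of Acrbp by -0.22 (-0.52 to 0.08), that of Zpbp by -0.04 and Zpbp2 by -0.03, with adjusted p-values of 0.421 and above. The median over the 12 probes was 0.11, where that over all probes was 0.00.

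The Lyzl6 call depended on single arrays and on the joint adjustment, which in simulated data (described below) also called many unchanged probes in this contrast. It was lost without either heterozygous spermatocyte array (0.68 without array 1, adjusted p 0.167, and 0.97 without array 2, adjusted p 0.0584), without wild type spermatocyte array 1 (0.82, adjusted p 0.0656) or 2 (0.72, adjusted p 0.0797), and when p-values were adjusted within this contrast alone (adjusted p 1.00), where 1 probe of all those tested passed in place of 52. Over 20 alternative settings its adjusted p ran between 0.00292 and 1.00 and passed in 15. Those of Spaca3 and Lyzl4 passed in 4 and 3 of 20 settings. Some of these settings left out spermatid arrays only. They kept the same spermatocyte arrays and the same difference, so they do not show how the call depends on the arrays compared.

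The mean of the 13 late-spermatid genes was likewise higher on the heterozygous spermatocyte arrays. It was 10.76 and 10.74 there, against 10.65, 9.72 and 10.54 on the wild type spermatocyte arrays. Wild type array 2 was by far the lowest. Of the 13 genes 0 were called between the genotypes by limma, 0 had an unadjusted p under 0.05, and their median difference was 0.49. All 9 members tested were also below their group mean on wild type spermatocyte array 2, where 49.4% of all probes tested were. Lyzl6 was also taken as a difference from the late-spermatid mean of the same array. It then stood at 0.44 and 0.17 in heterozygous spermatocytes, against -0.43, 0.31 and -0.08 in wild type spermatocytes. The genotypes overlapped only through wild type array 2, at 0.31, the array with the lowest late-spermatid mean. The other wild type arrays lay below both heterozygous arrays. With array 2 included, the mean difference between the genotypes was 0.38 in place of 0.83. For Lyzl4 and Spaca3 it was 0.25 and 0.21, for Acrv1 and Spaca1 -0.13 and -0.15, and for Acr, Acrbp, Zpbp and Zpbp2 -0.36, -0.67, -0.48 and -0.48. The part of spermatid RNA in the difference was not tested beyond these values.

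**Figure D3:**
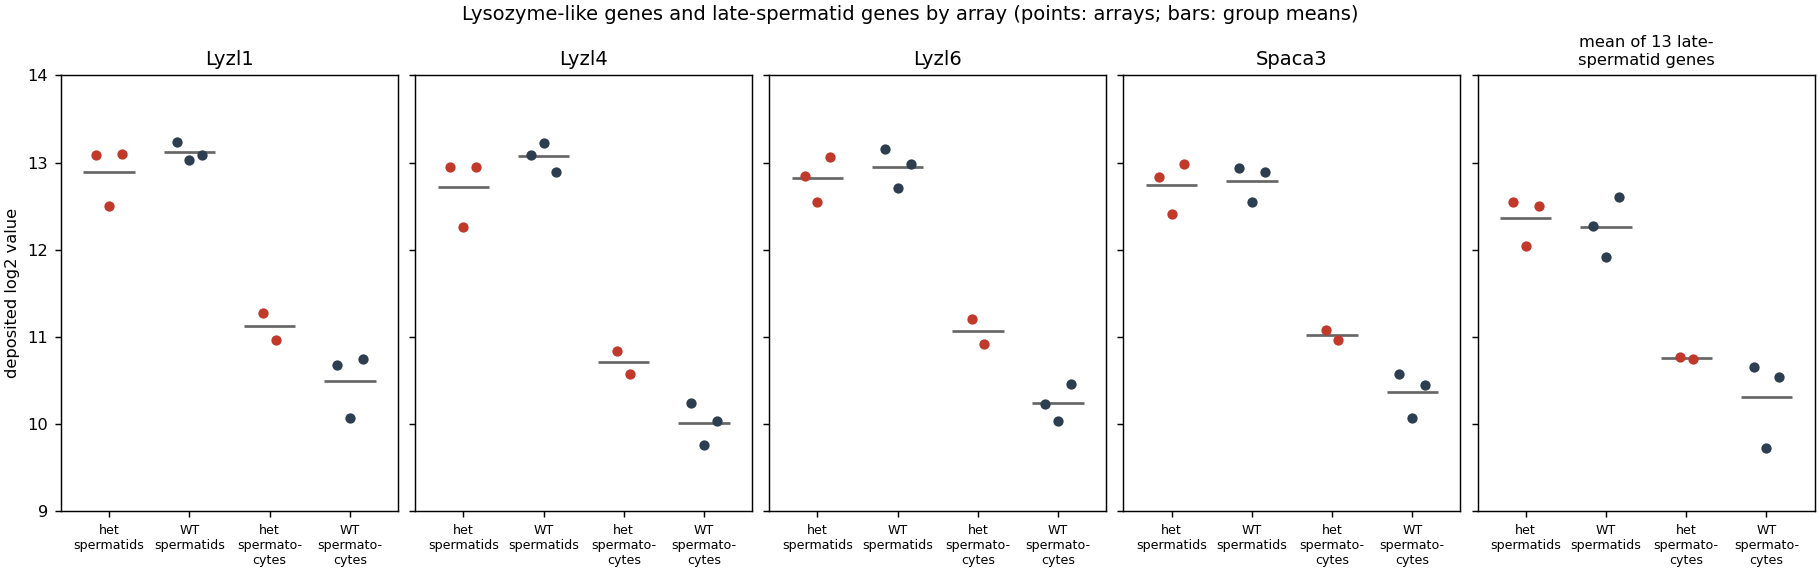
Deposited log2 values on each array (points) and group means (bars) of 4 lysozyme-like genes and of the mean of 13 late-spermatid genes. In spermatocytes the heterozygous arrays lie above the wild type arrays in every panel, and wild type array 2 is the lowest, at 9.72 for the late-spermatid mean.

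Between heterozygous and wild type spermatids, 0 of the 12 probes were called by limma and 0 had an unadjusted p under 0.05, while 0.440% of all probes tested were called. The difference was -0.35 for Lyzl4 (95% interval -0.81 to 0.10, adjusted p 0.385), -0.13 for Lyzl6 (-0.52 to 0.26), -0.05 for Spaca3 (-0.46 to 0.37), -0.18 for Acrv1 (-0.72 to 0.35) and -0.09 for Spaca1 (-0.70 to 0.51). The 2 Acr probes differed by 0.09 and 0.03, the brighter probes of Acrbp and Zpbp by 0.15 and -0.02, and Zpbp2 by -0.21. On heterozygous spermatid array 2, 9 of the 9 genes lay below their group mean, where 54.1% of all probes tested did. On wild type spermatid array 2, 7 of 9 did, where 46.9% of all probes did. Without that heterozygous array the differences of Lyzl6, Spaca3, Acrv1 and Spaca1 were 0.00, 0.12, 0.01 and 0.15 and that of Lyzl4 was -0.12.

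**Figure D4:**
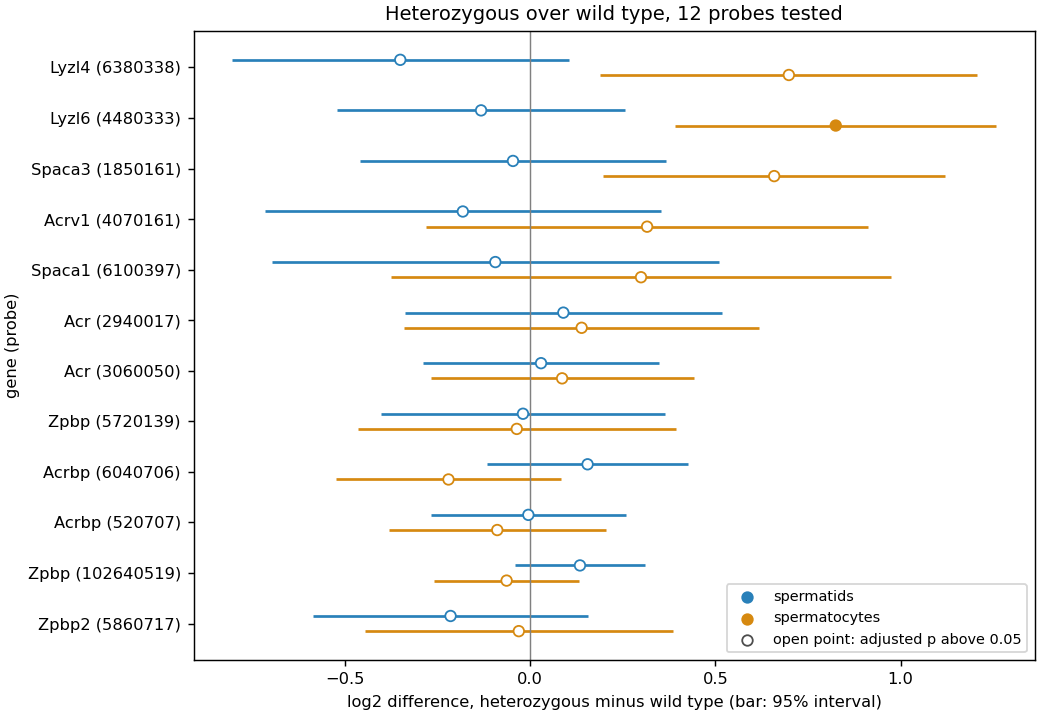
Log2 difference between heterozygotes and wild types for the 12 probes tested, in spermatids (blue) and spermatocytes (orange), with 95% intervals. The filled point is Lyzl6 in spermatocytes at 0.83, and all 12 points for spermatids are open.

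The difference between the fractions was smaller in heterozygotes than in wild types for all 3 lysozyme-like members, but the test of that difference between genotypes, the interaction, called 0 of the 12 probes. The interaction was -0.96 ± 0.26 for Lyzl6 (log2, SE, unadjusted p 0.00480), -1.05 ± 0.30 for Lyzl4 (0.00702) and -0.71 ± 0.27 for Spaca3 (0.0298), with an adjusted p of 1.00 for each. By limma 0% of all probes tested were called for it, with 566 of 27986 at an unadjusted p under 0.05, a smaller share than 0.05. For Acrv1, Spaca1 and the brighter probe of Acrbp it was -0.50, -0.39 and 0.38, and the median over the 12 probes was -0.12. Negative interactions were not limited to these members. In the lists described below, Lyzl1 stood at -0.85, Spaca4 at -0.93 and Ace at -0.58 (unadjusted p 0.0261, 0.0401 and 0.0334 by limma), none of them called. Spaca4 also differed by 0.74 between heterozygous and wild type spermatocytes, which was not called (adjusted p 0.158). Median interactions were -0.30 for the acrosomal membrane list, -0.13 for the matrix and -0.01 for biogenesis.

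The lysozyme family holds further genes. Of 8 genes of the family listed, 6 were tested, the 3 above with Lyzl1, Lyz1 and Lyz2. Lyzl1, a further lysozyme-like gene of the testis, read 13.09, 12.50 and 13.10 in heterozygous spermatids, 13.24, 13.03 and 13.09 in wild type spermatids, 11.28 and 10.97 in heterozygous spermatocytes, and 10.67, 10.06 and 10.74 in wild type spermatocytes. It followed the same order of groups, with spermatids higher by 1.78 in heterozygotes (adjusted p 0.00299) and 2.63 in wild types (adjusted p 0.000409), and a difference of 0.63 between heterozygous and wild type spermatocytes that was not called (adjusted p 0.147). Lyz2, the lysozyme of macrophages, was higher in spermatid fractions by 2.72 in heterozygotes (adjusted p 0.00503) and by 3.12 in wild types (adjusted p 0.00192), reading 9.55, 9.35 and 9.64 in heterozygous spermatids and 10.59, 8.99 and 10.50 in wild type spermatids, with at most 7.23 in any spermatocyte array. Lyz1, the lysozyme of Paneth cells, stayed between 6.82 and 7.07 and was called in no contrast. Lalba fell under the filter, and no probe was found by name for Spaca5.

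Other acrosomal genes were counted in 3 lists. Of all named genes tested, 10.5% were called higher and 11.0% lower in spermatids of heterozygotes, and 14.2% and 16.9% in those of wild types, which is the background for the counts of each list. Of 14 genes of the acrosomal matrix and enzymes tested, 5 were higher and 1 lower in heterozygous spermatids than in heterozygous spermatocytes, and 4 were higher and 0 lower in wild types. The greatest differences were those of Prss55, a testis serine protease (2.14 in heterozygotes and 2.42 in wild types), Zan, the zonadhesin of the acrosomal matrix (2.05 and 2.48), and Spaca7 (1.88 and 2.03). The lower gene was Spink2, an inhibitor of acrosin, at -0.66 in heterozygotes (adjusted p 0.0174). Of 10 genes of the acrosomal membrane and equatorial segment tested, 6 were higher and 1 lower in each genotype. Spaca4, a membrane protein of the Ly6/uPAR family, differed by 2.28 in heterozygotes and 3.21 in wild types, Dcst1 by 1.95 and 2.57, Eqtn, the equatorin of the equatorial segment, by 2.03 and 2.56, and Iqcf1 by 1.62 and 2.63, all of them called. Spesp1, of the equatorial segment, was lower, at -0.51 and -0.54.

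Genes of acrosome biogenesis and exocytosis went in both directions. Of 24 tested, 7 were higher and 5 lower in spermatids of heterozygotes, while in wild types 7 were higher and 7 lower. Sppl2c, an intramembrane protease of spermatids, differed by 2.13 in heterozygotes and 2.24 in wild types, Actrt1, an actin-related protein of the sperm head, by 1.97 and 2.19, and Capza3, a capping protein of actin, by 1.85 and 2.40. Among the lower genes, Vps54, a tethering factor at the Golgi, differed by -1.03 and -0.97, and Snap29, a SNARE of membrane fusion, by -0.94 and -0.93. Atg7, of autophagy, was lower in both, at -0.79 and -0.88. The vesicle SNARE Vamp3 differed by -1.57 in heterozygotes, which was not called (adjusted p 0.0620), and by -1.66 in wild types, which was (adjusted p 0.0329). The list medians were 0.20 and 0.24 for the matrix, 1.43 and 1.81 for the membrane, and -0.07 and -0.10 for biogenesis, in heterozygotes and wild types, where all named genes tested had -0.02 and -0.03. Between the genotypes 0 genes of these 3 lists were called by limma in either fraction, with 2 matrix genes at an unadjusted p under 0.05 in spermatids and 1 of each list in spermatocytes.

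**Figure D5:**
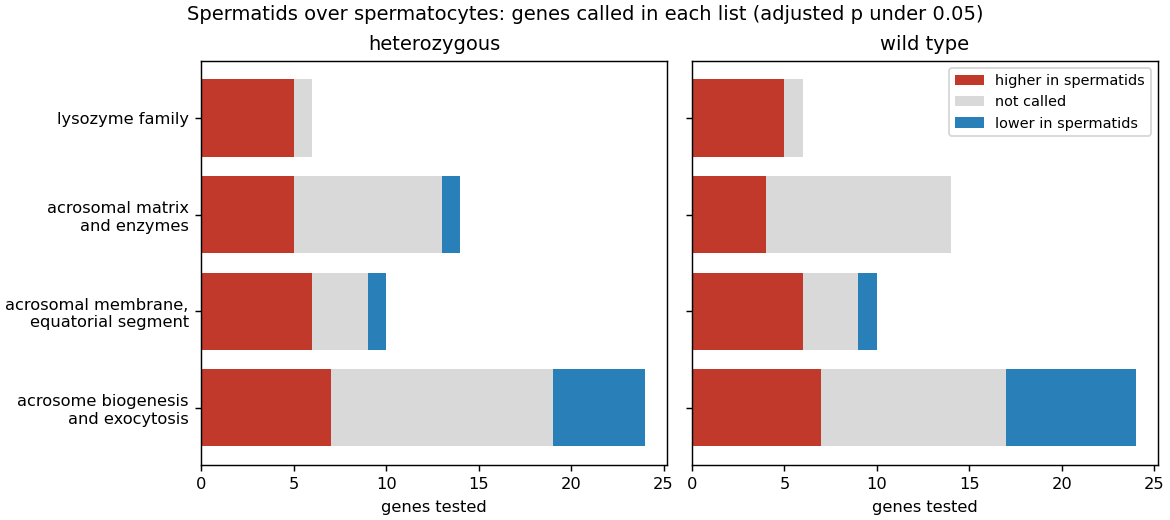
Number of genes called higher (red), lower (blue) or not called (grey) in spermatids against spermatocytes in each of 4 lists, for heterozygotes and wild types. The membrane list has 6 of 10 genes higher in both genotypes, and the biogenesis list is split between the directions.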

How the data were processed

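RNA of spermatids and spermatocytes of Dnmt3L heterozygous and wild type mice was measured on 11 arrays in the 4 groups that the labels give. By the methods, the authors exported bead signals with BeadStudio, corrected them for background by the negative controls, and made the deposited log2 values with the variance-stabilising transformation and quantile normalisation of lumi (versions are not given in the sources used here). A further deposited table of bead signals has 22 columns that match no sample and was not used. The arrays give no count of molecules, so their number limits the precision.

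Gene names came from the platform annotation, which gives 1 symbol for 32794 of 46643 probes, more than 1 for 55 and no symbol for 13794. RefSeq genes of GRCm38.p6 updated 32722 of these symbols, and 72 stayed as the platform has them. Group means were fitted over all 11 arrays with limma 3.58.1 (statmod 1.5.0, R 4.3.3) with 7 residual and 1.89 prior degrees of freedom. Adjustment ran over all probes kept and the 4 contrasts together, as in the study's methods, and for the interaction by itself. The cell type contrasts hold many small p-values, so adjusting the 4 contrasts together passes genotype differences at larger unadjusted p-values than adjusting each contrast alone: 52 against 1 probes in spermatocytes and 123 against 0 in spermatids. The fit was tested on simulated data, where it found most of the changed probes but the joint adjustment also called unchanged probes between genotypes, well above the nominal rate. For a log2 change of 0.7 in heterozygous spermatocytes, summed over the simulated sets, it found 770 of 1000 changed probes and called 1029 unchanged ones. Promoter windows were searched with Python 3.11.15, and figures drawn with matplotlib 3.10.9.

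All probes of the 10 genes are described. Of the wider lists the text names every lysozyme gene, each gene called between genotypes and the 3 greatest called changes per acrosomal list and direction, with the probe of highest mean for each gene. The pachytene and Leydig genes named, the group means of Actg2, and the interactions given for Lyzl1, Spaca4 and Ace were chosen after their values were seen. The genes and lists were chosen with earlier results of these data known. The labels do not say that a replicate number marks a shared batch, and same-numbered preparations did not deviate together for every number over all probes, so the numbers were not used as pairs. The alternatives tried were the filter, the adjustment, the samples in the fit, priors, array weights, cyclic loess, probes averaged per gene, the replicate number as a block and each array left out.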

Additional observations from a re-analysis of the deposited data

How the results depend on the processing

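Of 1014 values with a test, 942 kept direction and side of the threshold, 25 lost and 15 gained a call, and 32 changed sign. Of the 12 probes, 1 was called higher in heterozygous against wild type spermatocytes, against 0 with adjustment within the contrast, 3 with array weights, 3 with the replicate block and 3 without both spermatid arrays numbered 2 (chosen after seeing the data), and between 0 and 3 with single arrays left out. With the block, Spaca1 (0.43, adjusted p 0.0384) and Spaca3 (0.73, adjusted p 0.00787) joined Lyzl6, and Acr probe 2940017 was not called between the heterozygous fractions (0.86, adjusted p 0.0526). Over all probes the deviations of same-numbered arrays correlated at -0.26 to 0.33, with 0.28 and 0.33 between the genotypes for spermatid arrays numbered 1 and 2. By themselves these correlations cannot tell whether some numbers mark shared preparations. In no comparison were all of them above 0.1, and the numbers were not taken as pairs. The members were nevertheless low together on arrays numbered 2. There 9 of 9 genes lay below the group mean in heterozygous spermatids and 7 of 9 in wild type spermatids. In spermatocytes 8 of 9 did in heterozygotes and 9 of 9 in wild types. Of all probes tested, 54.1%, 46.9%, 48.5% and 49.4% lay below the group mean on these arrays, in the same order. With 2 heterozygous spermatocyte arrays, a gene below the mean on array 2 is above it on array 1. Probes called lower in spermatids numbered 1 in wild types, 0 with only the groups compared, 0 with cyclic loess, 2 with array weights, 0 genes with probes averaged, and 0 to 2 with single arrays left out. In heterozygotes they numbered 0, but 1 with adjustment within the contrast, 1 with array weights and 0 to 1 with single arrays left out. Probes called higher in spermatids stayed between 5 and 6 in wild types and 4 and 6 in heterozygotes when single arrays were left out.

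Over all probes, heterozygous and wild type spermatocytes differed at 52 probes, 1 with adjustment within the contrast, 117 with only these groups, 373 with array weights, 110 with the replicate block, 196 without both spermatid arrays numbered 2, 30 with a stricter filter, 98 with trend and robust priors, and 12 to 134 with single arrays left out. Heterozygous and wild type spermatids differed at 123 probes, 0 with adjustment within the contrast, 24 with only these groups, 1281 with array weights and 24 to 1340 with single arrays left out.

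The changes of sign were in differences that were not called. Between heterozygous and wild type spermatids, array weights gave -0.0012 and -0.021 for Acr probes 2940017 and 3060050 and 0.017 for Acrbp probe 520707, and leaving out both spermatid arrays numbered 2 gave 0.052 for Acrbp probe 520707 and 0.022 for Zpbp probe 5720139. With single arrays left out, this difference ran between -0.058 and 0.30 for Acr probe 2940017, -0.092 and 0.18 for 3060050, -0.11 and 0.052 for Acrbp probe 520707, -0.35 and 0.0071 for Acrv1, -0.29 and 0.15 for Spaca1, -0.17 and 0.12 for Spaca3, -0.25 and 0.0020 for Lyzl6, and -0.12 and 0.14 for Zpbp probe 5720139. In spermatocytes array weights gave 0.031 for Zpbp2, and single arrays left out gave -0.0035 to 0.17 for Acr probe 3060050, -0.20 to 0.0035 for Acrbp probe 520707, -0.14 to 0.041 for Zpbp probe 5720139 and -0.11 to 0.066 for Zpbp2. Between wild type spermatids and spermatocytes, Acrbp probe 6040706 stood at 0.0094 with cyclic loess and between -0.14 and 0.070 with single arrays left out. The cause was not tested.

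Starting from the bead signals with normexp was not run, since those columns match no sample, nor was the BeadChip as a block, since each cell type lies on 1 chip. With 2 or 3 arrays a group, the intervals are wide, and the probes under the filter have no measured difference.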
